A study of Mus musculus with 9 samples.

Results

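The 10 genes described here move iron into, within and out of the cells of the body: Trf, Tfrc and Slc11a2 for uptake, Fth1 and Ftl1 for storage, Slc40a1 and Cp for export, and Hfe, Hfe2 and Tfr2 for sensing how much iron circulates. They were chosen by name, for their role in iron handling, with no threshold on a measured value. Earlier results of these data were known when they were chosen. All 10 were found among the 28956 gene entries of the count table, and all 10 were among the 17582 genes with enough counts to be tested.

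Their transcripts were followed in mouse liver by poly(A) RNA sequencing of 9 libraries, 3 in each of 3 groups named APAP, APAP_MSC and APAP_HDF. All groups were C57BL6J mice aged 8 weeks that received APAP, the usual short form of acetaminophen, intraperitoneally at 300 mg/kg, and the series title places the samples at 24 h. APAP mice received no cells, whereas APAP_MSC and APAP_HDF mice also received 500000 MSC or HDF cells intravenously 90 min after APAP. The labels leave MSC and HDF unexpanded. These letters usually mean mesenchymal stromal cells and human dermal fibroblasts. No group without APAP was analysed here, so each comparison is between injured livers, and APAP_HDF serves as the comparison with another kind of injected cell. The labels give n = 3 but do not state that the libraries came from separate animals. The tests therefore weigh group differences against the variation seen among these libraries, which may be technical.

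The labelled cell type is hepatocytes, but the extraction protocol names whole liver tissue, and the data hold transcripts of other liver cells. The 12 hepatocyte markers summed to 113022 to 144166 CPM (counts relative to a common library total, scaled between libraries with TMM factors) over the 9 libraries, with Alb the most abundant. The 10 sinusoidal endothelial markers summed to 233 to 341 CPM in APAP, 167 to 191 CPM in APAP_MSC and 224 to 305 CPM in APAP_HDF. Library totals, rounded to 5 digits, ran from 53267000 to 63176000 counts. In such bulk samples, fewer cells of a type and less RNA per cell cannot be told apart.

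Iron travels in plasma bound to transferrin (Trf), which the liver makes. Cells take the complex up through transferrin receptor 1 (Tfrc), reduce the iron in the endosome and pass it to the cytosol through DMT1 (Slc11a2). What is not used is stored in ferritin, a shell of heavy (Fth1) and light (Ftl1) chains, or leaves the cell through ferroportin (Slc40a1), after which the plasma ferroxidase ceruloplasmin (Cp) helps load it onto transferrin. Hepatocytes sense circulating iron with Hfe, transferrin receptor 2 (Tfr2) and hemojuvelin (Hfe2, now also called Hjv), and answer with hepcidin (Hamp), a hormone that makes ferroportin be degraded.

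Some of these transcripts carry iron-responsive elements, short stem-loops to which the iron regulatory proteins bind when iron is scarce. Binding at the 5' end blocks translation of the messenger, and binding at the 3' end protects it from decay. A stem-loop pattern was therefore searched in the GENCODE transcripts of the mouse build GRCm38: a bulged C, a stem of 5 base pairs in which G:U pairs were allowed, and a loop of 6 letters reading CAGTGN. It was found at 7 sites in 4 of the 10 genes, and in 294 of all 21901 protein-coding genes (1.34%). The sites are shown because elements of this kind are known to act on storage, export and uptake genes after transcription, a step that transcript levels read only in part. Each is printed as 27 bases of the sense strand with the loop in capitals, and all coordinates are GRCm38, which is not the build that the submitters name.
Fth1 5' UTR, chr19:9982733-9982759, + strand: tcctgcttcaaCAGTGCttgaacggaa
Ftl1 5' UTR, chr7:45459780-45459806, - strand: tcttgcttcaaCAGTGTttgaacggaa
Slc40a1 5' UTR, chr1:45925466-45925492, - strand: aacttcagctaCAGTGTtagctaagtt
Tfrc 3' UTR, chr16:32631220-32631246, + strand: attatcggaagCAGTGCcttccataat
Tfrc 3' UTR, chr16:32631599-32631625, + strand: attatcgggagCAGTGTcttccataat
Tfrc 3' UTR, chr16:32631664-32631690, + strand: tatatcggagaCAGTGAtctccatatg
Tfrc 3' UTR, chr16:32631711-32631737, + strand: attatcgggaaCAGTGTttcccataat

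The Fth1 and Ftl1 sites were identical at 25 of 27 bases. Between the Fth1 and Slc40a1 sites 13 of 27 bases were identical. The pattern matched 4 sites within the 3' UTR of Tfrc, and elements that depart from these letters would not be counted. For the other 6 genes, Slc11a2 among them, the result says only that these letters are not in the transcripts searched.

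Levels differed widely between the genes. Per kilobase of the longest coding transcript, the mean over the 9 libraries was 8270 CPM per kb for Trf, 2827 for Fth1, 1496 for Ftl1, 630 for Cp and 123 for Tfr2. The remaining genes lay at 33.3 CPM per kb (Hfe2), 25.2 (Slc40a1), 12.4 (Tfrc), 11.3 (Slc11a2) and 7.22 (Hfe). The order of Slc40a1 and Tfrc depends on the length used, since per kilobase of all annotated exon bases they lay at 9.45 and 9.81 CPM per kb. The secreted proteins and the ferritin chains thus had the highest transcript levels per length, and the membrane proteins the lowest. The ranges of the group means overlapped for Tfrc (11.4 to 14.3 CPM per kb) and Slc11a2 (10.1 to 13.1).

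**Figure D1:**
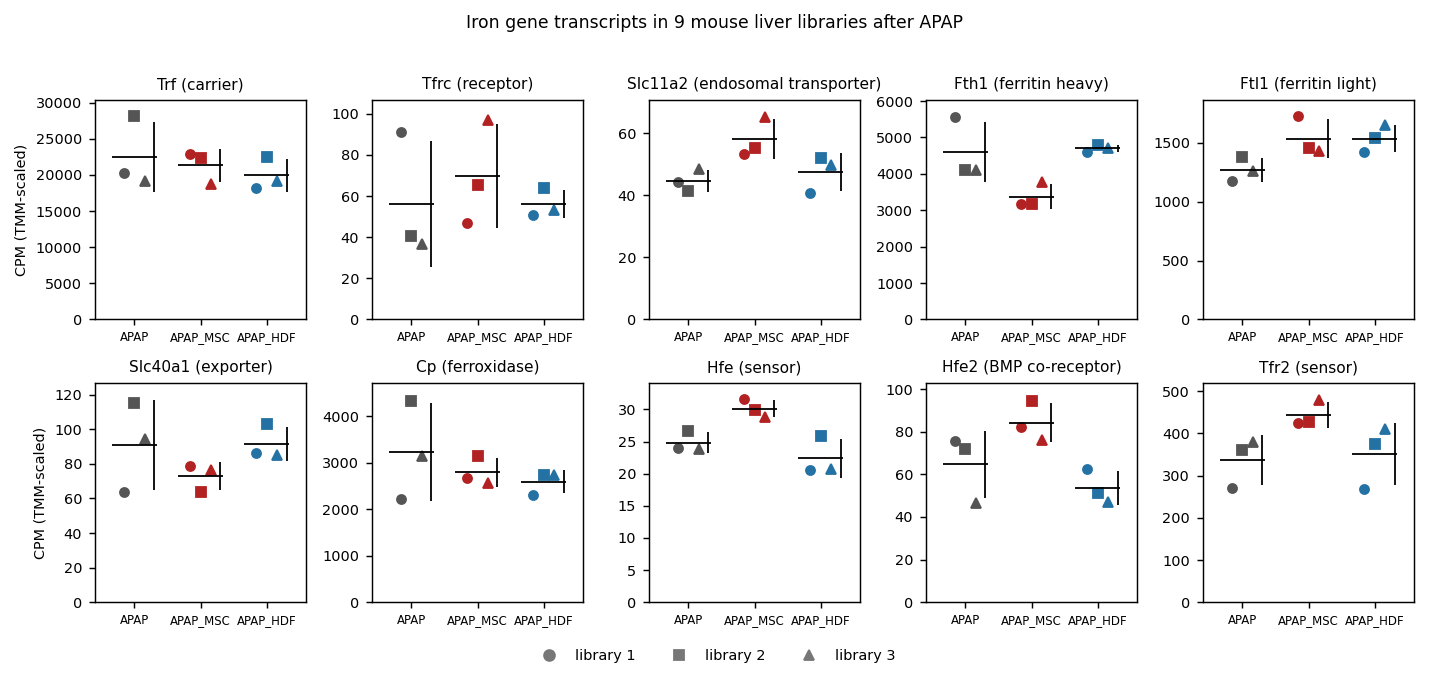
Level of each iron gene in each library, in CPM with TMM-scaled library sizes on linear axes from 0, by group. Points are libraries 1 to 3 of a group in column order, horizontal lines are group means and vertical lines are ± 1 SD (n = 3). The 3 APAP_MSC libraries lie outside the range of the other 6 for Tfr2, Hfe, Hfe2 and Slc11a2 (above) and for Fth1 (below), while the Tfrc groups overlap.

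In the comparison of APAP_MSC with APAP, which asks how injured liver differed when MSC had been given, 0 of the 10 genes passed the test, against 6.38% of all tested genes (edgeR quasi-likelihood test, Benjamini-Hochberg adjusted p under 0.05). With DESeq2 the count was 1, Fth1 (10.9% of all genes), with limma-voom 0 (5.03%) and with edgeR without a filter on low counts 1, Fth1 (3.61%). An unadjusted p under 0.05 was found for 4 of the 10 and for 22.9% of all genes. Against APAP_HDF, 2 of the 10 genes passed, Hfe and Hfe2, both higher in APAP_MSC, where 8.89% of all genes passed and 4.90% passed as higher. There DESeq2 called 3 of the 10, Fth1, Hfe and Hfe2 (13.3% of all genes), limma-voom 2 (8.17%) and edgeR without the filter 2, Fth1 and Hfe (4.76%). An unadjusted p under 0.05 was found for 4 of the 10 and for 25.7% of all genes. APAP_HDF against APAP gave 0 of 10 and 0% of all genes by edgeR, and 0 of 10 where DESeq2 called 0.356% of all genes. In that comparison 8.78% of all genes and 0 of the 10 had an unadjusted p under 0.05. A test of any difference among the 3 groups called 0 of the 10, against 7.00% of all genes. Its smallest adjusted p was 0.0772 for Hfe, followed by 0.0899 for Hfe2 and 0.106 for Fth1.

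The 3 APAP_MSC libraries lay wholly above or below the 3 APAP libraries for 6 of the 10 genes, 5 higher and 1 lower, as they did for 28.5% of the genes tested. Against APAP_HDF the same held for 6 genes, 4 higher and 2 lower (33.2% of all genes), and between APAP_HDF and APAP for 1 gene (11.7%). For 5 of the 10 genes the APAP_MSC libraries lay outside the range of all 6 others, which was true of 17.5% of all genes. The comparisons share libraries, so their values are not independent of each other.

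**Figure D2:**
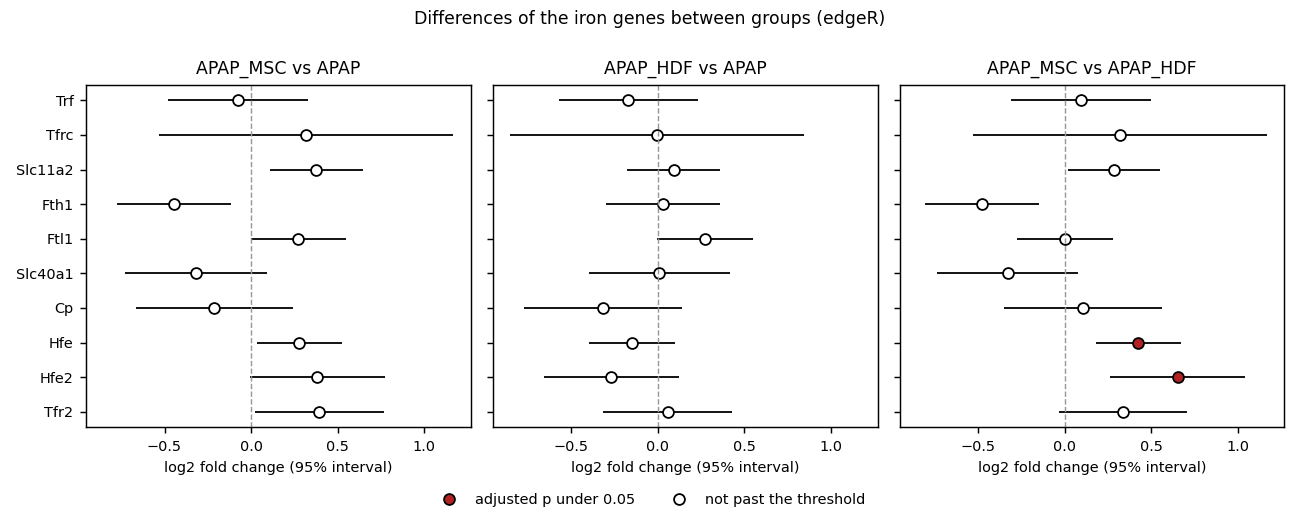
Difference of each iron gene in the 3 comparisons, as log2 fold change from the edgeR fit on the horizontal axis, with its 95% interval as a line. Filled points passed the adjusted threshold: Hfe at 0.43 and Hfe2 at 0.65 in APAP_MSC against APAP_HDF were the 2 that did.

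Trf, the gene of the plasma carrier, showed no separation of the groups. It lay at 20237, 28107 and 19101 CPM in the APAP libraries, at 22867, 22360 and 18767 CPM in APAP_MSC, and at 18189, 22546 and 19187 CPM in APAP_HDF. The highest value was APAP library 2, and the groups overlapped in every comparison. On the log2 scale the difference was -0.08 ± 0.18 (SE) for APAP_MSC against APAP (adjusted p = 0.855, 95% interval -0.48 to 0.33) and -0.17 ± 0.18 for APAP_HDF against APAP (adjusted p = 0.81). In the GRCm38 annotation 63.5% of the exon bases of Trf are shared with Gm20425 on the same strand, and how the authors' counting divided such reads is not given in the sources used here.

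Tfrc, the receptor that most dividing cells and red cell precursors use for iron, was the most variable gene of the 10 in APAP. It lay at 91.2, 40.5 and 36.7 CPM in APAP (coefficient of variation 54.3%), at 47.0, 65.5 and 97.0 CPM in APAP_MSC, and at 50.9, 63.8 and 53.2 CPM in APAP_HDF. APAP library 1 was far above the other APAP libraries, and all groups overlapped. APAP_MSC differed from APAP by a log2 fold change of 0.32 ± 0.37 (adjusted p = 0.679), with a 95% interval from -0.53 to 1.17 on the log2 scale. The value rested on single libraries: it was 0.87 without APAP library 1 (adjusted p = 0.113), 0.14 without APAP library 2, 0.085 without APAP library 3, 0.54 without APAP_MSC library 1 and 0.017 without APAP_MSC library 3. Against APAP_HDF, Tfrc in APAP_MSC differed by 0.32 (adjusted p = 0.637), and by 0.54 and 0.025 without APAP_MSC libraries 1 and 3. APAP_HDF against APAP moved from -0.00 to 0.54 without APAP library 1 (adjusted p = 0.744). Markers of proliferating cells, 8 genes, summed to 41.1 to 45.4 CPM in APAP, 34.8 to 47.6 in APAP_MSC and 41.1 to 43.9 in APAP_HDF, with 0 of 7 tested called in any comparison. Erythroid markers, 9 of 10 found in the table, summed to 71.9 to 236 CPM in APAP, 170 to 277 in APAP_MSC and 91.1 to 112 in APAP_HDF, while Slc4a1 was at 0 in all APAP_HDF libraries. Their part in the Tfrc values was not tested.

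Slc11a2, the transporter that carries iron out of the endosome, lay at 44.3, 41.2 and 48.3 CPM in APAP, 53.4, 55.3 and 65.3 CPM in APAP_MSC, and 40.6, 52.1 and 49.9 CPM in APAP_HDF. All 3 APAP_MSC libraries were above the 6 others. The means were 44.6 ± 3.55, 58.0 ± 6.42 and 47.5 ± 6.09 CPM (SD, n = 3). The log2 fold change of 0.38 ± 0.12 against APAP missed the threshold (adjusted p = 0.0876, 95% interval 0.11 to 0.64), as did 0.29 ± 0.12 against APAP_HDF (adjusted p = 0.162). Without APAP_HDF library 1, which enters this comparison only through the shared fit, the first of these passed (adjusted p = 0.0402).

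The ferritin chains ordered the groups differently. Fth1, which carries the ferroxidase centre of ferritin, lay at 5556, 4119 and 4119 CPM in APAP, at 3185, 3170 and 3763 CPM in APAP_MSC, and at 4593, 4798 and 4713 CPM in APAP_HDF. All APAP_MSC libraries were below all others. Means were 4598 ± 830, 3372 ± 338 and 4701 ± 103 CPM (SD, n = 3). APAP_MSC had a log2 fold change of -0.45 ± 0.15 against APAP (edgeR adjusted p = 0.1, DESeq2 0.0332) and -0.48 ± 0.15 against APAP_HDF (edgeR adjusted p = 0.0702, DESeq2 0.0173), so whether Fth1 passed depended on the tool. Without a filter on low counts edgeR gave 0.046 and 0.0278. Without APAP library 1, its highest value, the difference from APAP was -0.27 (adjusted p = 0.312), and that from APAP_HDF was -0.46 (adjusted p = 0.0454).

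Ftl1, the light chain that favours the mineral core, lay at 1175, 1376 and 1261 CPM in APAP, 1728, 1452 and 1429 CPM in APAP_MSC, and 1420, 1539 and 1648 CPM in APAP_HDF. Here both groups given cells were above all APAP libraries and overlapped each other. Against APAP, Ftl1 had a log2 fold change of 0.27 ± 0.13 for APAP_MSC (adjusted p = 0.222) and of 0.27 ± 0.13 for APAP_HDF (adjusted p = 0.574). It was 0.00 ± 0.13 between APAP_MSC and APAP_HDF (95% interval -0.27 to 0.28). Ftl1 was the only one of the 10 genes whose APAP_HDF and APAP libraries did not overlap.

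Within a library, the ratio of the 2 chains does not depend on scaling between libraries. There were 4.73, 2.99 and 3.27 Fth1 counts per Ftl1 count in APAP, 1.84, 2.18 and 2.63 in APAP_MSC, and 3.23, 3.12 and 2.86 in APAP_HDF. All APAP_MSC libraries were below all others. The mean log2 ratio in APAP_MSC differed by -0.71 from APAP (exact permutation p = 0.1, two-sided) and by -0.48 from APAP_HDF (exact permutation p = 0.1), and 0.1 is the smallest p that 3 against 3 allows. APAP_HDF and APAP overlapped (difference -0.23, exact permutation p = 0.4). A ratio shows unequal change only, not which chain moved.

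Reads shared with ferritin pseudogenes limit both values. Ftl1-ps1 held 2123 to 3175 counts per library, 3.05% to 3.54% of those of Ftl1. Its log2 fold change was 0.15 ± 0.11 for APAP_MSC against APAP (adjusted p = 0.447) and 0.24 ± 0.11 for APAP_HDF against APAP (adjusted p = 0.552). Ftl1-ps2 held 57 to 104 counts, and Fth-ps2, the most abundant heavy chain pseudogene row in the table, 0 to 15. On the opposite strand, Gm10252 overlaps 26.5% of the exon bases of Ftl1 in GRCm38.

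Set against the receptor, storage transcripts gave a second ratio across the genes with stem-loops at opposite ends. Fth1 counts per Tfrc count were 60.9, 102 and 112 in APAP, 67.8, 48.4 and 38.8 in APAP_MSC, and 90.2, 75.2 and 88.6 in APAP_HDF. APAP_MSC was below APAP_HDF in every library, but APAP library 1 lay among the APAP_MSC values. The mean log2 ratio of Tfrc to Fth1 differed by 0.75 between APAP_MSC and APAP_HDF (exact permutation p = 0.1), by 0.82 between APAP_MSC and APAP (exact permutation p = 0.2) and by 0.07 between APAP_HDF and APAP (exact permutation p = 0.8).

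**Figure D3:**
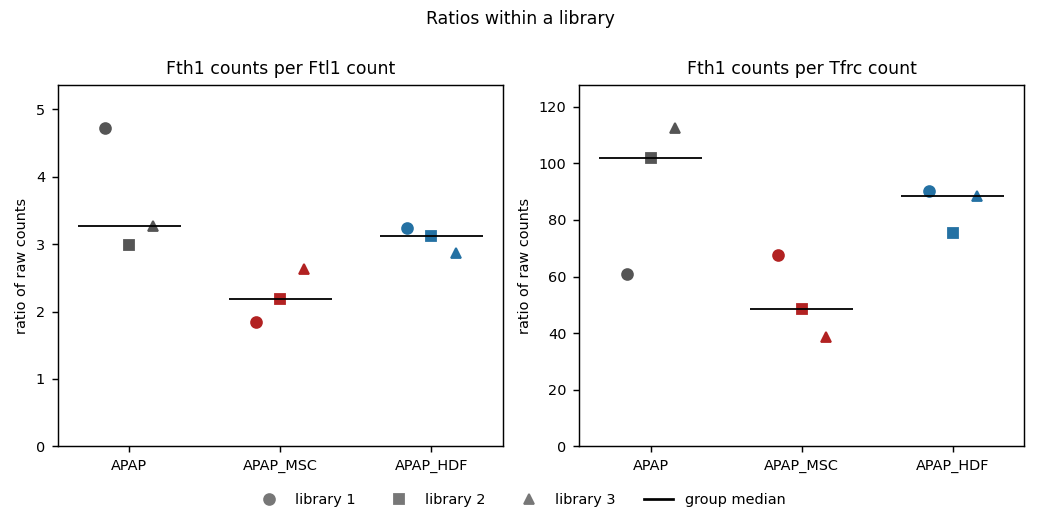
Ratios of raw counts within each library, on linear axes from 0: Fth1 counts per Ftl1 count on the left and Fth1 counts per Tfrc count on the right. Points are libraries 1 to 3 of a group and lines are group medians. On the left the APAP_MSC libraries lie between 1.84 and 2.63 and the 6 others between 2.86 and 4.73, whereas on the right APAP library 1, at 60.9, lies within the APAP_MSC range.

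Of the export genes, Slc40a1, which encodes the only known cellular iron exporter of mammals, lay at 63.5, 115 and 94.1 CPM in APAP, 78.8, 63.7 and 76.1 CPM in APAP_MSC, and 86.2, 103 and 85.3 CPM in APAP_HDF. APAP_MSC was below APAP_HDF in every library and overlapped APAP through APAP library 1. For APAP_MSC the log2 fold change was -0.32 ± 0.19 against APAP (adjusted p = 0.341), -0.33 ± 0.19 against APAP_HDF (adjusted p = 0.295) and, for APAP_HDF against APAP, 0.01 ± 0.18 (adjusted p = 0.993). The first of these was -0.50 without APAP library 1 (adjusted p = 0.0752) and -0.10 without APAP library 2 (adjusted p = 0.793). Kupffer cells, the resident macrophages that recycle iron from red cells, are a main site of ferroportin in liver. Their 10 markers, none of them at 0 throughout a group, summed to 163 to 392 CPM in APAP, 249 to 377 in APAP_MSC and 174 to 228 in APAP_HDF. The most abundant of them, C6, averaged 73.9 ± 28.6, 165 ± 35.0 and 86.3 ± 41.6 CPM (SD, n = 3). Without C6, which was left out after its values were seen, the sums were 122 to 298, 101 to 172 and 69.5 to 153 CPM. Of the 10 markers, 1, Cd163, fell in APAP_MSC against APAP (6.38% of all tested genes passed there) and 0 differed in the other comparisons. Their median log2 fold change was -0.61 for APAP_MSC and -0.88 for APAP_HDF against APAP. Their part in the Slc40a1 values was not tested.

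Cp, which hepatocytes secrete and which also counts as an acute phase protein, lay at 2231, 4337 and 3143 CPM in APAP, 2680, 3143 and 2563 CPM in APAP_MSC, and 2315, 2730 and 2741 CPM in APAP_HDF. The APAP libraries spanned the range of both other groups. Its log2 fold change was -0.21 ± 0.21 for APAP_MSC (adjusted p = 0.605) and -0.32 ± 0.21 for APAP_HDF (adjusted p = 0.672) against APAP. Both moved with the APAP libraries: without APAP library 1 they were -0.40 and -0.52, and without APAP library 2 they were 0.069 and -0.053. Of the 15 acute phase genes tested, 0 differed between APAP_MSC and APAP, and 1, Orm2, was higher in APAP_MSC than in APAP_HDF (log2 fold change 2.11 ± 0.54, adjusted p = 0.0475), a call lost in 8 of 9 fits with 1 library left out.

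The sensors gave the 2 differences that passed. Hfe, an MHC-like protein that passes the signal of iron-loaded transferrin to the hepcidin gene, lay at 24.0, 26.7 and 23.8 CPM in APAP, 31.5, 29.9 and 28.8 CPM in APAP_MSC, and 20.6, 25.9 and 20.7 CPM in APAP_HDF. All APAP_MSC libraries were above the 6 others. Hfe was 1.34-fold higher in APAP_MSC than in APAP_HDF (95% interval 1.13 to 1.59, log2 fold change 0.43 ± 0.11, adjusted p = 0.0388). Against APAP the log2 fold change was 0.28 ± 0.11 (adjusted p = 0.166), and APAP_HDF differed from APAP by -0.15 ± 0.11 (adjusted p = 0.714).

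Hfe2, the bone morphogenetic protein (BMP) co-receptor without which hepcidin is hardly made, lay at 75.5, 71.9 and 46.5 CPM in APAP, 82.2, 94.5 and 76.2 CPM in APAP_MSC, and 62.6, 51.4 and 47.0 CPM in APAP_HDF. The APAP_MSC libraries were again above the 6 others, the nearest being APAP library 1. Hfe2 was 1.57-fold higher in APAP_MSC than in APAP_HDF (95% interval 1.20 to 2.06, log2 fold change 0.65 ± 0.18, adjusted p = 0.0447). Against APAP the log2 fold change was 0.38 ± 0.18 (adjusted p = 0.224), and for APAP_HDF against APAP it was -0.27 ± 0.18 (adjusted p = 0.675). Without APAP library 3, the lowest of its group, these were 0.20 (adjusted p = 0.459) and -0.47 (adjusted p = 0.219), and without APAP library 1 the second was -0.14.

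Both calls lay close to the threshold. Leaving out 1 library at a time, the Hfe call against APAP_HDF was lost in 5 of 9 fits (adjusted p 0.0256 to 0.133) and that of Hfe2 in 6 of 9 (0.00898 to 0.178). Both were lost without APAP_MSC library 1, 2 or 3 or APAP_HDF library 3. Hfe alone was lost without APAP_HDF library 1, and Hfe2 alone without APAP library 2 or APAP_HDF library 2. Their log2 fold changes stayed between 0.38 and 0.54 and between 0.58 and 0.79 in these fits.

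Tfr2, the hepatocyte receptor that binds iron-loaded transferrin as a sensor, lay at 271, 361 and 381 CPM in APAP, 424, 428 and 479 CPM in APAP_MSC, and 268, 376 and 409 CPM in APAP_HDF. Here too the APAP_MSC libraries were above all others, by a small gap. In APAP_MSC its log2 fold change was 0.39 ± 0.17 against APAP (adjusted p = 0.191) and 0.34 ± 0.17 against APAP_HDF (adjusted p = 0.237), neither past the threshold. Without APAP_HDF library 1 the second was 0.18 (adjusted p = 0.48). All 3 sensors thus had their highest libraries in APAP_MSC, while 1 comparison of 2 of them passed.

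Hepcidin transcripts fell in APAP_MSC. Hamp was at 731, 1083 and 1145 CPM in APAP, 162, 199 and 188 CPM in APAP_MSC, and 518, 548 and 723 CPM in APAP_HDF, with no overlap between any of the groups. APAP_MSC differed by -2.43 ± 0.19 from APAP and by -1.70 ± 0.19 from APAP_HDF on the log2 scale (adjusted p = 4.03e-04 and 0.00107). APAP_HDF against APAP was -0.73 ± 0.18 and did not pass with edgeR (adjusted p = 0.463), whereas DESeq2 called it.

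Around the 10 genes, 6 lists of other iron genes were read from the same fit. Like the 10 genes, these lists were chosen with earlier results of these data known. Of their 79 genes, 78 were in the table and 75 were tested. In APAP_MSC against APAP, 5 rose and 9 fell, with a median log2 fold change of 0.03 against -0.01 over all genes. Against APAP_HDF 6 rose and 10 fell, with a median of 0.00 against -0.02. The shares of all tested genes that passed in these comparisons were 6.38% and 8.89%. APAP_HDF against APAP gave 0 by edgeR and 1, Hamp, by DESeq2. The 10 genes of the main group had medians of 0.28, 0.20 and 0.00 in APAP_MSC against APAP, APAP_MSC against APAP_HDF and APAP_HDF against APAP. The counts depended on single libraries: the first of them, 14 genes, ran from 4 without APAP_MSC library 2 to 20, and the calls of Hamp, Hamp2, Id1 and Smad7 held in all 9 such fits. Other calls against APAP were lost in some of the 9, in 2 for Slc46a1, 3 for Alad, 4 each for Slc48a1 and Bmp2, 5 for Ppox, 6 for Alas2 and 7 for Abcb10. Against APAP_HDF, calls were lost in 1 fit for Alad, 2 each for Alas2 and Bmp2, 4 each for Hamp2 and Ppox, 5 for Steap3 and 6 for Slc25a37.

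Of 18 tested genes of hepcidin and its BMP pathway, 5 fell and 0 rose against APAP, and 9 fell and 0 rose against APAP_HDF. Over all tested genes, 6.38% passed against APAP and 8.89% against APAP_HDF, in either direction. Since the list was chosen with earlier results known, these counts are not an independent test of the pathway. Id1, a direct target of BMP signalling, fell from 47.1 ± 9.26 CPM in APAP to 9.46 ± 1.68 CPM in APAP_MSC and was at 40.0 ± 5.70 CPM in APAP_HDF (adjusted p = 4.03e-04 and 4.19e-04 for APAP_MSC against each). Smad7, the inhibitory SMAD that the same signal induces, fell from 25.4 ± 0.949 to 12.5 ± 2.06 CPM against 26.0 ± 2.10 CPM in APAP_HDF (adjusted p = 0.00353 and 0.00158). Hamp2, the second mouse hepcidin gene, lay at 2.37 ± 0.325 CPM in APAP, 0.522 ± 0.154 in APAP_MSC and 1.51 ± 0.464 in APAP_HDF. Its counts per library ran from 24 to 158. In APAP_MSC it fell by 2.18 ± 0.31 against APAP on the log2 scale (adjusted p = 0.00565). Its reads may be shared with those of Hamp, a close copy that averaged 986 CPM in APAP and 183 CPM in APAP_MSC. Whether Hamp2 fell apart from Hamp was not tested.

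Bmp2 and Bmp6, the BMP ligands that liver endothelium supplies to hepatocytes, had few counts per library total. Bmp2 lay at 10.4 ± 2.17 CPM in APAP, 5.43 ± 1.34 in APAP_MSC and 10.8 ± 0.71 in APAP_HDF (adjusted p = 0.0238 and 0.0136 for APAP_MSC against each). Bmp6 lay at 3.94 ± 1.05, 2.24 ± 0.075 and 4.06 ± 0.673 CPM, and its difference passed against APAP_HDF (adjusted p = 0.0375) but not against APAP (adjusted p = 0.0569). Of the 10 sinusoidal endothelial markers, whose sums are given above, none was at 0. In this list 4 fell against APAP, where 6.38% of all tested genes passed, and 4 against APAP_HDF (8.89%). The part of these markers in the ligand values was not tested.

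Tmprss6, the protease that cuts hemojuvelin from the hepatocyte surface, did not pass. It lay at 231 ± 18.4 CPM in APAP, 343 ± 25.6 in APAP_MSC and 235 ± 58.0 in APAP_HDF. APAP_MSC was above each of the others by 0.57 ± 0.16 (against APAP, adjusted p = 0.0629) and 0.54 ± 0.16 (against APAP_HDF, adjusted p = 0.062) on the log2 scale.

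**Figure D4:**
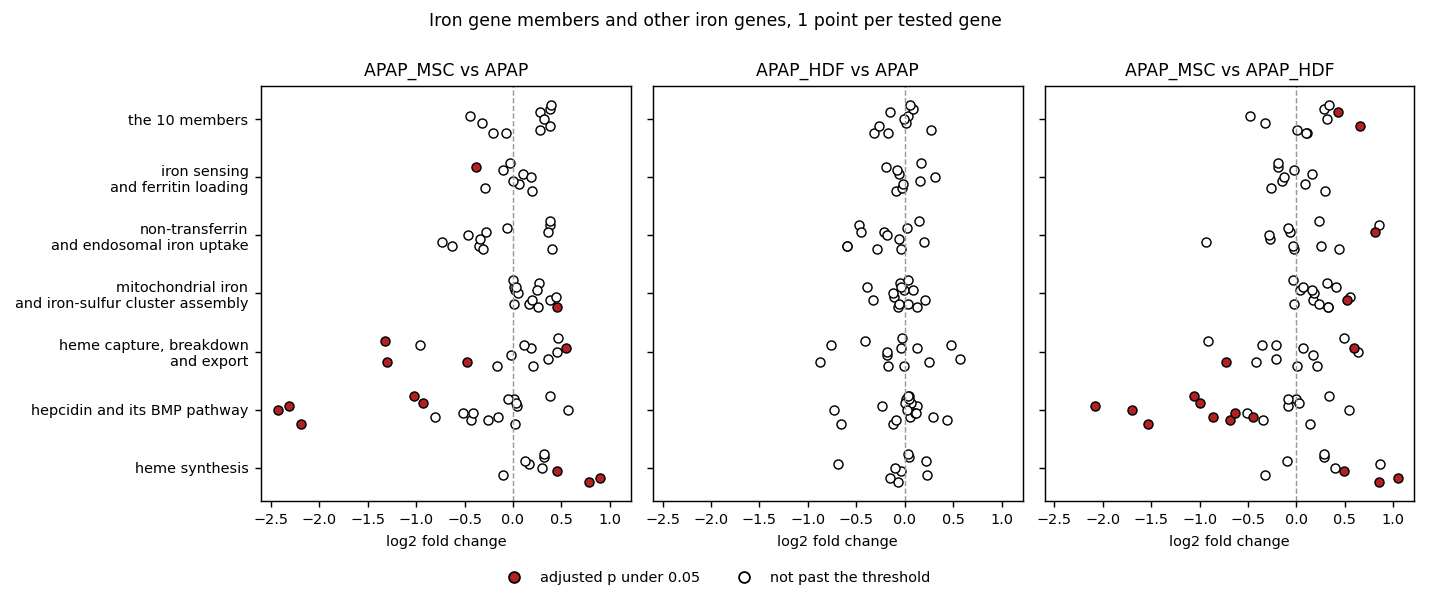
Log2 fold change of the 10 iron genes and of the tested members of 6 lists of other iron genes, 1 point per gene, in the 3 comparisons. Filled points passed the edgeR test at an adjusted p under 0.05. Most filled points on the left of 0 belong to hepcidin and its BMP pathway, those of heme synthesis lie on the right, and the middle panel has none.

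In heme synthesis, a main use of iron, 3 of 9 genes rose and 0 fell in each comparison of APAP_MSC. Of all tested genes, 6.38% passed against APAP and 8.89% against APAP_HDF, in either direction. This list too was chosen with earlier results known, so its counts are not an independent test. Alad, which forms the pyrrole ring, rose from 97.1 ± 20.9 to 167 ± 11.2 CPM, with 92.2 ± 15.9 CPM in APAP_HDF (adjusted p = 0.0224 and 0.0119 for APAP_MSC against each). Ppox, a late mitochondrial step, rose by 0.45 ± 0.12 against APAP (adjusted p = 0.0425) and by 0.49 ± 0.12 against APAP_HDF (adjusted p = 0.0247), both on the log2 scale. Alas2, the first enzyme in red cell precursors and itself an erythroid marker, rose likewise by 0.90 ± 0.21 and 1.04 ± 0.21 (adjusted p = 0.0349 and 0.0154). Alas1 and Fech, of the same list, did not pass. Alas1 lay at 485 ± 167 CPM in APAP, 544 ± 129 in APAP_MSC and 300 ± 58.8 in APAP_HDF. Fech lay at 149 ± 9.04, 139 ± 8.84 and 175 ± 12.2 CPM, with its lowest mean in APAP_MSC. The erythroid marker sums given for Tfrc were higher in APAP_MSC than in all APAP_HDF libraries and overlapped those of APAP, and their part in the Alas2 values was not tested.

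Among 13 genes of heme capture, breakdown and export, 1 rose and 3 fell against APAP, and 1 rose and 1 fell against APAP_HDF. For these comparisons the shares of all tested genes that passed were 6.38% and 8.89%. Slc46a1, a transporter of folate and heme, rose from 31.3 ± 0.876 to 45.9 ± 2.29 CPM (adjusted p = 0.0175, and 0.00814 against APAP_HDF), and Slc48a1, which moves heme out of lysosomes, fell from 117 ± 4.93 to 84.5 ± 6.67 CPM (adjusted p = 0.02, and 0.0024 against APAP_HDF). Cd163, the macrophage receptor for hemoglobin bound to haptoglobin, differed on the log2 scale by -1.30 ± 0.30 (adjusted p = 0.0337), and Hmox1, heme oxygenase, by -1.32 ± 0.33 (adjusted p = 0.0498) against APAP, so both fell. Cd163 is also the Kupffer cell marker that fell, given with Slc40a1, so the call is the same. The Hmox1 call was lost in 6 of 9 fits with 1 library left out, and that of Cd163 in 5. Infiltrating monocyte and macrophage markers, 10 genes with none at 0, summed to 156 to 222 CPM in APAP, 130 to 145 in APAP_MSC and 126 to 153 in APAP_HDF, and 6 of the 10 fell in APAP_MSC against APAP (median log2 fold change -1.21). Against APAP_HDF 2 were lower and 1 higher in APAP_MSC (median -0.80), and in APAP_HDF against APAP 0 were called (median -0.65). Spp1, the most abundant, averaged 77.4 ± 30.8, 82.0 ± 3.14 and 43.6 ± 1.69 CPM. Without Spp1 (left out after its values were seen) the sums were 104 to 141, 46.9 to 66.3 and 84.6 to 108 CPM. Spp1 was also listed as a marker of cholangiocytes, so it is not specific to macrophages. Of the 6 cholangiocyte markers, 4 were higher in APAP_MSC than in APAP_HDF and 0 were lower, where 4.90% of all tested genes passed as higher. The part of the macrophage and Kupffer cell markers in the falls of Cd163 and Hmox1 was not tested.

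The lists nearest to the cell's own iron handling held at most 1 call each per comparison. Over all tested genes, 6.38% passed against APAP and 8.89% against APAP_HDF. Whether these short lists differed from those shares was not tested. Of 9 genes of iron sensing and ferritin loading, 1 fell against APAP, Ncoa4, the receptor that delivers ferritin to lysosomes for iron release (119 ± 12.1 to 91.0 ± 4.06 CPM, log2 fold change -0.38 ± 0.10, adjusted p = 0.0423), and 0 differed against APAP_HDF. Ncoa4 lay at 104 ± 3.80 CPM in APAP_HDF, and its call was lost in 7 of 9 fits with 1 library left out. The iron regulatory proteins that bind the stem-loops shown above, encoded by Aco1 and Ireb2, did not pass. APAP_MSC differed from APAP by 0.20 ± 0.11 for Aco1 (adjusted p = 0.296) and by 0.06 ± 0.10 for Ireb2 (adjusted p = 0.782) on the log2 scale.

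Of 12 tested genes of non-transferrin and endosomal uptake, 0 differed from APAP and 1 rose against APAP_HDF. That gene was Steap3, the reductase that prepares iron for Slc11a2 in the endosome, at 37.9 ± 3.50 against 21.6 ± 3.37 CPM (log2 fold change 0.81 ± 0.20, adjusted p = 0.0314), with 29.5 ± 8.42 CPM in APAP. Among 14 genes of mitochondrial iron and iron-sulfur cluster assembly, 1 rose in each comparison of APAP_MSC. Against APAP it was Abcb10, an inner membrane transporter (0.45 ± 0.11, adjusted p = 0.0387), and against APAP_HDF it was Slc25a37, mitoferrin 1 (0.52 ± 0.15, adjusted p = 0.0491). Each missed the threshold in the comparison where the other passed, with adjusted p = 0.094 for Abcb10 and 0.483 for Slc25a37.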

How the data were processed

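RNA from liver was sequenced in 9 libraries of 3 groups. The builds mm39 and GRCm39 and the tools HISAT2, Subread and DESeq2 appear in the submitters' processing notes. Strand use in counting and versions are not given in the sources used here. The authors deposited raw read counts per gene symbol and a second table of normalized signal (counts over a factor per library), which served only as an alternative for the ratios. Column headers give groups but no replicate numbers, so libraries 1 to 3 follow column order.

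Raw counts were tested with edgeR 4.0.16 (R 4.3.3): filterByExpr by group (17582 genes), TMM, robust quasi-likelihood fit to all 9 libraries with group as the term, two-sided, Benjamini-Hochberg over all genes, threshold 0.05. Levels are TMM-scaled CPM. Alternatives used DESeq2 1.42.0, limma 3.58.1 (voom), other scaling, no filter, 2 groups only, the legacy fit (added after seeing the data) and each library left out. Library totals were 53267000 to 63176000 counts, and a count of 0 allows up to 3 counts, for counting error only. Between libraries of a group, gene counts differed by more than sampling noise (median chi-square at least 3.18). The steps were tested on simulated data. Within-library ratios were compared by exact permutation.

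The members and lists were chosen with earlier results of these data known. The text names all members. From each other list it names up to 4 genes past the test with the smallest p, and where none passes may name 1. Bmp2, Bmp6, Tmprss6, Aco1 and Ireb2 are named for their role where outside this rule. Alas1 and Fech are named as heme synthesis genes that did not pass. Genes of like pattern were to be named only for members past the test in APAP_MSC against APAP, of which there were 0. Stem-loop sites came from GENCODE M21 (GRCm38), as did lengths and overlaps. The level of 1 marker gene is not reported here.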

Additional observations from a re-analysis of the deposited data

How the results depend on the processing

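No paired analysis was possible because the columns carry no replicate number. In APAP_MSC against APAP, the count of members past the test was 0, and 1 (Fth1) without the filter on low counts and 1 (Fth1) with DESeq2. Any difference among the 3 groups gave 0, with 1 (Fth1) without the filter and 3 (Fth1, Hfe, Hfe2) with DESeq2. In APAP_MSC against APAP_HDF the count was 2 (Hfe, Hfe2), with 3 (Fth1, Hfe, Hfe2) with DESeq2 and 2 without the filter, which were Fth1 and Hfe (Hfe2 then had an adjusted p of 0.0508). DESeq2 called 1 other iron gene, Hamp, in APAP_HDF against APAP, where edgeR called 0.

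With each library left out in turn, the member counts ran from 0 to 1 for APAP_MSC against APAP, from 0 to 3 for APAP_MSC against APAP_HDF and from 0 to 1 for any difference, and those of other iron genes from 4 to 20 and from 6 to 19. In the same fits the sign turned for some differences. Not all of them were near 0, since Cp in APAP_MSC against APAP was -0.21 with all libraries. For APAP_MSC against APAP, Trf ran from -0.18 to 0.13 and Cp from -0.40 to 0.0693. For APAP_HDF against APAP, Tfrc ran from -0.25 to 0.54, Tfr2 from -0.0757 to 0.217, Trf from -0.285 to 0.0179, Fth1 from -0.0524 to 0.194, Slc40a1 from -0.19 to 0.21, and the log2 ratio of Tfrc to Fth1 from -0.10 to 0.34. Ftl1 in APAP_MSC against APAP_HDF ran from -0.0919 to 0.0682. Without a change of sign, Hfe in APAP_HDF against APAP ran from -0.27 to -0.0941, and Ftl1 in APAP_MSC against APAP was 0.18 without APAP_MSC library 1.

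With all libraries, the sign turned for Slc40a1 in APAP_HDF against APAP with upper-quartile factors (-0.00533), for Tfrc in the same comparison with limma-voom (0.12) and for Ftl1 in APAP_MSC against APAP_HDF with limma-voom (-0.0023). Of the remaining values of single genes under settings other than left-out libraries, 409 kept their direction and side of the threshold, 5 newly passed and 10 no longer passed. The cause of these changes was not tested.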
